A study of Mus musculus with 8 samples.

Results

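The expression of 6 genes for ion channel subunits of the heart was followed. They were Hcn2, Hcn3 and Hcn4, which encode pore-forming subunits of the pacemaker channel, and Scn2b, Scn3b and Scn4b, which encode beta subunits of voltage-gated sodium channels. They were taken by gene symbol from a table of 53465 genes, and all 6 were in it. The RNA came from heart ventricles of mouse embryos at embryonic day 15.5. There were 4 libraries of WT (control) ventricles and 4 of ventricles with the genotype Nrg-1flox;Cdh5-CreERT2, and the design states 1 ventricle per replicate. In that line Cre recombinase fused to a tamoxifen-responsive receptor domain is driven by the promoter of Cdh5, an endothelial cadherin gene, and is meant to remove floxed Nrg1 sequence from endothelial and endocardial cells. The cardiomyocytes, in which these channels work, are not the cells that the driver targets, and the tamoxifen dose and time were not given in the sources used here. Whether the WT embryos carried the floxed allele or Cre, or were given tamoxifen, is likewise not given.

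HCN channels open when the membrane becomes more negative, let sodium and potassium through with a net inward current, and are tuned by cyclic AMP. The current they carry drives the slow depolarisation of pacemaker cells, and Hcn4 is the isoform best known for this role in the sinoatrial node and in the early embryonic heart. Voltage-gated sodium channels carry the rapid upstroke of the action potential. Their alpha subunits form the pore, and their beta subunits are small membrane proteins with an immunoglobulin-like domain that alter gating, traffic and cell adhesion. Neuregulin-1, the product of Nrg1, is a growth factor that endocardial cells send to the trabecular myocardium.

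The tissue and the labels were checked first. All 10 cardiomyocyte markers examined (among them Tnnt2, Myh7 and Ttn) passed the count filter, and their summed level was 39375 to 44428 CPM (read counts scaled to the size of each library) in the WT libraries, against 38769 to 45177 CPM with the Nrg-1flox;Cdh5-CreERT2 label. None of the 10 was called by edgeR (0, with 1 at an unadjusted p below 0.05), and DESeq2 called Myh6, the alpha myosin heavy chain gene, with a log2 fold change of -0.19 in edgeR (edgeR adjusted p = 0.134). Of all genes past that filter DESeq2 called 1.29%, and 10.5% were at an unadjusted p below 0.05 in edgeR. Library totals were 16761763 to 24144272 expected counts, and the smallest was library 4 of the Nrg-1flox;Cdh5-CreERT2 group. Nrg1 itself, at a mean of 4.87 ± 0.636 CPM (SD, n = 4) for WT, had a mean of 6.17 ± 0.611 CPM (SD, n = 4) under the deletion label, and so was not lower where it should have been deleted (log2 fold change 0.34, edgeR adjusted p = 0.311). A count over the whole gene does not show whether single floxed exons were lost. The libraries are therefore called labelled-mutant, and every direction below is that of the label. Reads of Xist and of Y-linked genes were both present (more than 20 counts) in 7 of 8 libraries, with 1750 to 6731 counts of Xist and 1022 to 2805 Y-linked counts. WT library 4 held 4 counts of Xist. A single embryo of either sex would not be expected to give both at such levels, so a library may hold RNA of more than 1 embryo, and each n and SD below counts libraries and may not count embryos. How the reads came together was not tested. In each group library 4 had the most Y-linked reads, with 3897 counts in WT and 2037 in the labelled mutant. No label says that the samples of a group came from separate litters, so p-values measure the spread between these samples.

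Hcn4 had by far the most reads of the 6 genes, 463 to 728 counts per library. It lies on chromosome 9 (58823412 to 58863175, plus strand, GRCm38) and has 1 annotated transcript of 6118 exonic bases. Scn2b (45117782 to 45130070) and Scn4b (45138395 to 45154152) are neighbours on the same chromosome and strand, 8324 bases apart, and Scn3b (40269217 to 40291618) is also on chromosome 9. Hcn2 is on chromosome 10 (79716634 to 79736108, plus strand) and Hcn3 on chromosome 3 (89146074 to 89160196, minus strand). Hcn3 shares 711 exonic bases, 17.1% of its own, with Pklr on the opposite strand. Pklr held 0 to 7.3 expected counts per library, which is not small beside the 8 to 17 counts of Hcn3, and since the strand setting is not given, reads of the shared bases cannot be assigned to either gene with certainty. With the counts of both genes summed, the log2 fold change was -0.43 (edgeR adjusted p = 0.624), against -0.46 for Hcn3 alone.

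RefSeq promoter windows, on GRCm38.p6, matched 4 of the 6 genes (Hcn2, Hcn4, Scn2b and Scn4b). Those of Hcn4 and Scn2b are shown because these were the best measured member of each family, and the windows differ in base composition. The bases end before the first annotated transcript start in RefSeq or GENCODE. Capitals mark matches to a T-box motif (AGGTGT, or its complement ACACCT), an ETS motif (CCGGAA, or TTCCGG) and an E-box (CANNTG).
Hcn4, chr9:58822699-58822948, plus strand: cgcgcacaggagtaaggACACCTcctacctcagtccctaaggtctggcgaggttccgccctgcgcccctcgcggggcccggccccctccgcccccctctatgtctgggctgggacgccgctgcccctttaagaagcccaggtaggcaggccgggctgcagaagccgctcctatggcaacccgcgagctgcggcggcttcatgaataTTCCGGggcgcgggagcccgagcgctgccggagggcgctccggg
Scn2b, chr9:45117626-45117781, plus strand: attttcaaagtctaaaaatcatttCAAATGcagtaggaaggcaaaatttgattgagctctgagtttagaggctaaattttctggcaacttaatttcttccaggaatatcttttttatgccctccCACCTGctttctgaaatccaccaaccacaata

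The full window of 300 bases was 71.7% G or C with 31 CG dinucleotides for Hcn4, and 38.3% with 2 for Scn2b. The median over 32851 windows was 52.7% and 7. The values were 72.3% and 26 for Hcn2, and 66.3% and 26 for Scn4b. The T-box letters occurred once in the Hcn4 window, as they did at least once in 13.7% of all windows. The ETS letters also occurred once there, against 14.9% of all windows. E-box letters were found 3 times in the Scn2b window, of which the last lies beyond the printed bases, and once in that of Hcn2, and are common (72.3% of all windows). Both strands were searched. None of the 4 windows held the letters AGATAA of a GATA-factor motif (11.2% of all windows), AAGTG of NKX2-5 (46.4%), the TATA box (searched as TATAAA, 13.6%) or TGACGT of a cyclic AMP response element (7.51%). The letters GGAATG of a TEAD motif (14.7%) were in the window of Scn4b alone. The matches marked above do not overlap. These are matches of letters and not sites of binding.

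Per exonic length the 6 genes fell into 4 levels. The median over all 8 libraries was 4.41 CPM per kilobase of exon for Hcn4, 0.598 for Scn2b, 0.209 for Scn3b, 0.193 for Hcn2, 0.163 for Hcn3 and 0.0354 for Scn4b. Hcn4 was above Scn2b in 8 of 8 libraries without overlap (at least 3.68 against at most 0.728 CPM per kilobase), with medians 7.37-fold apart. Scn2b likewise lay above Scn3b in every library. Scn3b, Hcn2 and Hcn3 could not be put in order, since their ranges overlapped and each was higher than the next in only 5 of 8 libraries. With the longest transcript of Scn3b in place of all its exons, its WT mean was 0.287 rather than 0.218 CPM per kilobase. Scn4b was lowest, with at most 0.0557 CPM per kilobase.

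**Figure D1:**
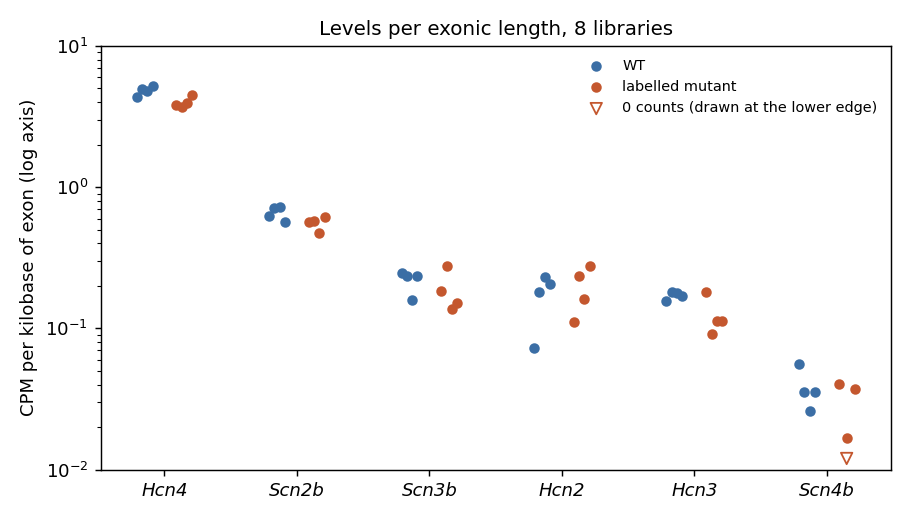
Level of each channel gene as CPM per kilobase of exon on a log axis, with 1 point per library (blue, WT; orange, labelled mutant; the open triangle is a library with 0 counts, drawn at the lower edge). Hcn4 lies above Scn2b in all 8 libraries, Scn3b, Hcn2 and Hcn3 overlap, and Scn4b is lowest.

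Within the HCN family, Hcn4 thus made up most of the RNA. Its share of the summed level per kilobase of Hcn2, Hcn3 and Hcn4 was 92.1% to 95.0% in the WT libraries and 91.8% to 93.5% in the labelled-mutant libraries. In WT it was 28.0 times as high as Hcn2 and 28.2 times as high as Hcn3 on the same scale. Among the 3 beta subunit genes, Scn2b held 67.5% to 79.7% of their summed level per kilobase in WT and 66.3% to 80.4% in labelled-mutant libraries. Scn3b held 17.4% to 27.9% and 19.6% to 31.8%. The ranges of both shares overlapped between the groups, and depth and counting error of the low genes enter them.

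To ask whether endothelial targeting of Nrg1 is accompanied by a different channel repertoire, the groups were compared with edgeR's quasi-likelihood test over 15388 genes, with a false discovery rate (FDR) of 0.05. Of the 6 channel genes 5 passed the count filter, and 0 of these 5 were called, against 81 of all tested genes (0.526%). At an unadjusted p below 0.05 there was 1 (Hcn4), where 10.5% of all tested genes passed. The log2 fold change was below 0 for 4 of the 5, against 50.6% of all tested genes, and their median was -0.24 against -0.0012 over all. None of the 6 genes had groups that did not overlap, which 6.05% of tested genes had. With DESeq2 1 channel gene (Hcn4) was called, against 1.29% of all tested genes, and with limma voom 0, against 0.370%.

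**Figure D2:**
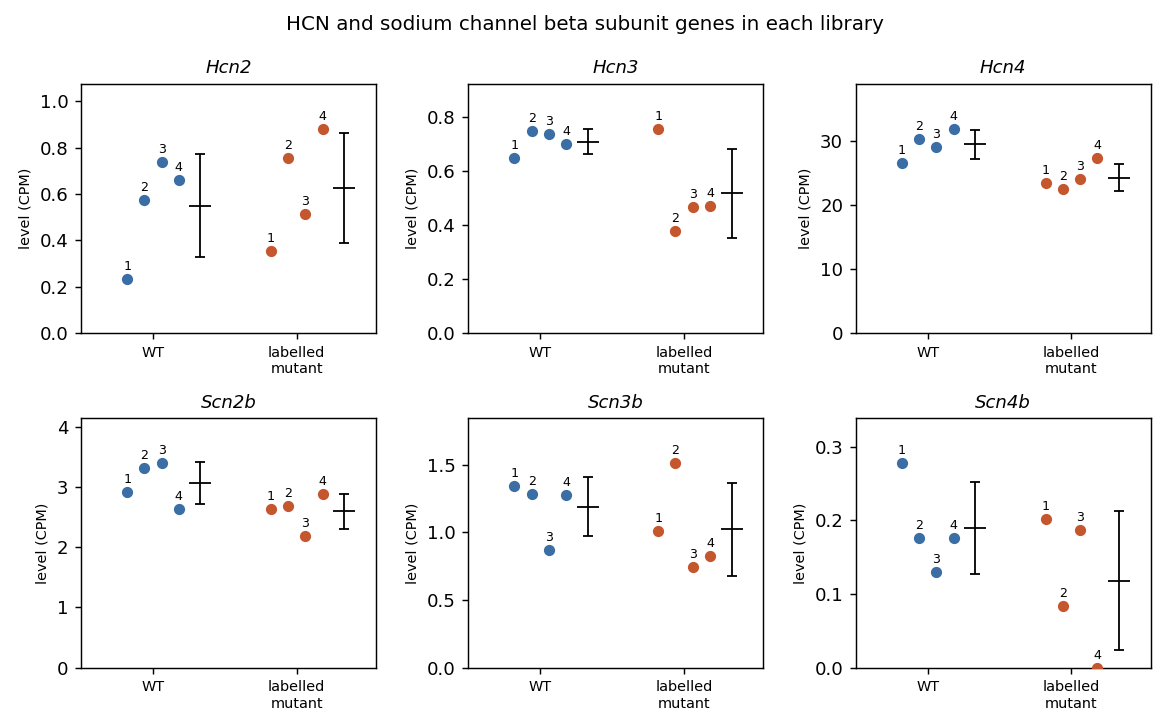
Level of each gene in CPM (vertical axis from 0) in the 4 WT (blue) and 4 labelled-mutant (orange) libraries, with the library number above each point and the group mean ± SD as a black bar. In Hcn4 the labelled-mutant libraries 1 to 3 sit below every WT library and library 4 sits inside the WT range, while all 6 genes overlap between the groups.

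Hcn4 had the smallest p of the channel genes. WT libraries 1 to 4 held 26.6, 30.3, 29.2 and 32.0 CPM of it, whereas labelled-mutant libraries 1 to 4 held 23.4, 22.5, 24.0 and 27.3 CPM. Of the latter, 3 of 4 lay below every WT library, while library 4 lay above the lowest WT value. The means were 29.5 ± 2.25 and 24.3 ± 2.10 CPM (SD, n = 4), which is a log2 fold change of -0.29 (SE 0.0682) with a 95% interval from -0.43 to -0.14. As a ratio this is 0.820, with an interval of 0.740 to 0.908. The unadjusted p from edgeR was 0.00108 and the adjusted p was 0.0941, so Hcn4 did not pass over all genes. The WT counts, not scaled to library size, had an SD of 64.3, where counting alone gives 25.8, so depth enters this spread.

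The call on Hcn4 depended on the filter, the test and 1 library, while its size stayed between -0.34 and -0.20. Without a filter on low counts the log2 fold change was -0.29 with an adjusted p of 0.00424 in edgeR, and 1.15% of all genes were called. The likelihood ratio test of edgeR gave an adjusted p of 0.0128 (1.57% of genes called) and DESeq2 gave 0.0309 (1.29% called). Without labelled-mutant library 4 the log2 fold change was -0.34 and edgeR's adjusted p was 0.0364, with 0.911% of genes called. With the summed Y-linked level of each library as a covariate it was -0.20 (SE 0.0741) and edgeR's adjusted p was 0.423. WT library 4 had both the highest Hcn4 and the most Y-linked reads of its group, and the same held for labelled-mutant library 4. Among the other WT libraries, library 2 had the fewest Y-linked counts (1570) and more Hcn4 (30.3 CPM) than libraries 1 and 3. Labelled-mutant library 2 had the fewest Y-linked counts (1022) and the lowest Hcn4 (22.5 CPM) of its group. Over the libraries the summed Y-linked level ranged from 69.3 to 171 CPM for WT and from 42.9 to 120 CPM for the labelled mutant. All 4 Y-linked genes had a log2 fold change below 0 (-0.85 to -0.63), where 50.6% of all tested genes did. At an unadjusted p below 0.05 there were 3 of the 4, where 10.5% of all tested genes passed, and edgeR called 0. Label and Y-linked level thus changed together. The part of the Y-linked level in the Hcn4 difference was tested only through this covariate.

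**Figure D3:**
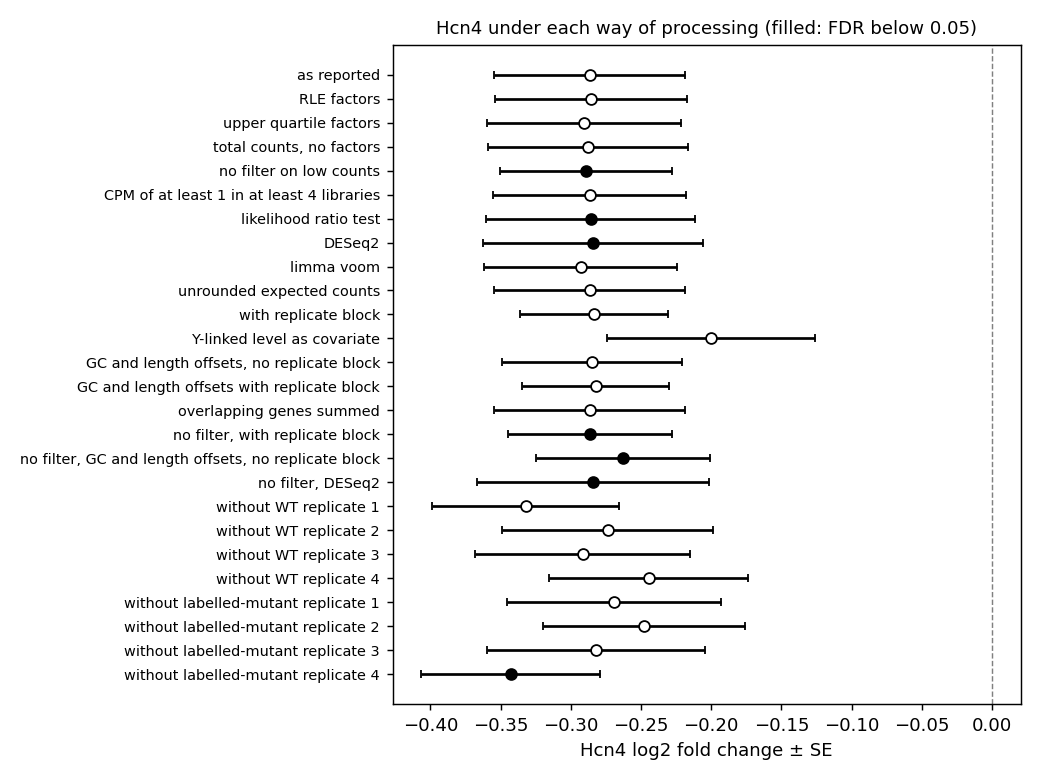
Log2 fold change of Hcn4 (labelled mutant against WT, ± SE) under each way of processing, from the reported fit at the top to the fits without 1 library at the bottom; filled points have an FDR below 0.05. The values lie between -0.34 and -0.20 and 7 of the alternatives are filled.

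Hcn2, the other cyclic-AMP-sensitive isoform of the working heart, was near the detection limit, with 5 to 18 counts per library. WT libraries 1 to 4 held 0.231, 0.574, 0.739 and 0.659 CPM, and the labelled-mutant ones 0.354, 0.755, 0.513 and 0.883 CPM. The groups overlapped almost completely, with the lowest library (1) of each group well below the others. The fitted difference on the log2 scale, 0.17 (SE 0.382, edgeR adjusted p = 0.933), had a 95% interval from -0.66 to 0.99, and no difference was detectable at this depth. Its sign turned without WT library 1 (-0.077) and without labelled-mutant library 4 (-0.013).

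Hcn3, an HCN isoform with little response to cyclic AMP, had 8 to 17 counts per library. WT libraries 1 to 4 held 0.648, 0.751, 0.739 and 0.703 CPM, and the labelled-mutant ones 0.758, 0.378, 0.466 and 0.471 CPM. Labelled-mutant libraries 2 to 4 lay below every WT library and library 1 above all of them. The difference was -0.46 on the log2 scale (SE 0.288, edgeR adjusted p = 0.628), with a 95% interval from -1.08 to 0.16, and without labelled-mutant library 1 it was -0.70 (edgeR adjusted p = 0.541). The spread of the WT counts (SD 1.41) was less than counting alone gives for such a mean (4.00). In 3 of 8 libraries its expected count was not a whole number, so part of its reads were assigned by estimation.

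Scn2b encodes the beta-2 subunit, which links covalently to the alpha subunit and acts in cell adhesion. WT libraries 1 to 4 held 2.91, 3.31, 3.39 and 2.64 CPM, and the labelled-mutant ones 2.63, 2.69, 2.19 and 2.88 CPM. All labelled-mutant values were below the WT mean of 3.06 ± 0.353 CPM (SD, n = 4), but WT library 4 lay among them. The difference was -0.24 on the log2 scale (SE 0.149, edgeR adjusted p = 0.622), with a 95% interval from -0.56 to 0.08. It had 47 to 78 counts per library, and its expected counts were not whole in 8 of 8 libraries, so that part of its reads were assigned by estimation.

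Scn3b encodes the beta-3 subunit, which associates with the alpha subunit without a covalent bond. WT libraries 1 to 4 held 1.34, 1.28, 0.869 and 1.27 CPM, and the labelled-mutant ones 1.01, 1.51, 0.746 and 0.824 CPM, so that the highest and the lowest library were both labelled mutant. The difference was -0.20 on the log2 scale (SE 0.266, edgeR adjusted p = 0.868), with a 95% interval from -0.78 to 0.38. The counts of the labelled-mutant libraries, not scaled to library size, had an SD of 9.98, against 4.64 from counting alone. Depth enters this spread, since library 2 had both the most counts of Scn3b (36) and the largest total of its group, and library 4 the fewest (14) and the smallest. Without labelled-mutant library 2 the log2 fold change was -0.46 (edgeR adjusted p = 0.622), and without labelled-mutant library 3 it was -0.069.

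Scn4b, whose beta-4 subunit has a cytoplasmic tail known for its role in resurgent sodium current, was almost absent from these libraries. WT libraries 1 to 4 held 6, 4, 3 and 4 counts of it, and the labelled-mutant ones 4, 2, 4 and 0. The count of 0 allows a level of up to 0.177 CPM in that library, for counting error alone, which is the level of WT libraries 2 and 4. It did not pass the filter, and without a filter the log2 fold change was -0.63 with an interval of -2.14 to 0.88 (edgeR adjusted p = 0.788). No difference could be detected at this depth.

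**Figure D4:**
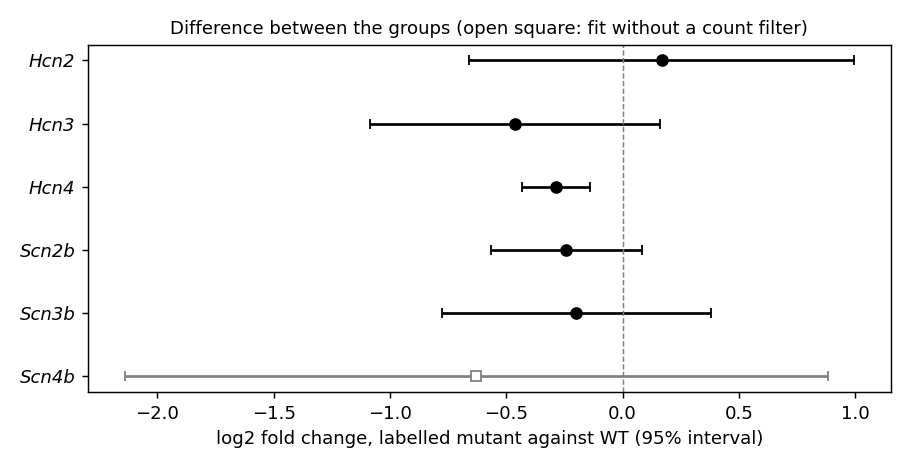
Log2 fold change of each gene, labelled mutant against WT, with its 95% confidence interval; filled circles come from the reported fit and the open square (Scn4b) from the fit without a count filter. The interval of Hcn4 (-0.43 to -0.14) is narrow and does not reach 0, and those of the other 5 genes cross 0.

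The other members of both channel families were then counted. The table held 12 further HCN and sodium channel genes, of which 8 passed the filter. None was called by edgeR (0 of 8), nor by DESeq2 or limma voom, and their median log2 fold change was -0.03. At an unadjusted p below 0.05 there were 2 of the 8, where 10.5% of all tested genes passed. Scn7a, which encodes a sodium-sensing relative of the alpha subunits, had means of 5.97 ± 0.487 and 5.79 ± 0.934 CPM (SD, n = 4), WT first. Scn3a, a largely neuronal alpha subunit gene, was at 2.05 ± 0.308 and 1.76 ± 0.200 CPM. Scn2a, also neuronal, was at 0.783 ± 0.280 and 0.770 ± 0.0501 CPM. Scn4a, the skeletal muscle alpha subunit gene, was at 0.767 ± 0.352 and 0.420 ± 0.107 CPM, with a log2 fold change of -0.87 (edgeR adjusted p = 0.461).

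Genes for proteins that bind or regulate these channels showed no called difference in RNA either. Of 23 such genes 22 were tested, with 0 called by edgeR, DESeq2 or limma voom and a median log2 fold change of 0.02. At an unadjusted p below 0.05 there was 1, where 10.5% of all tested genes passed. Among the 4 with the smallest p were Lrmp, Fgf11 and Kcne2. Lrmp, a regulator of the cyclic AMP response of Hcn4, was at 0.42 on the log2 fold change scale (edgeR adjusted p = 0.535), from 1.19 ± 0.104 and 1.60 ± 0.361 CPM (SD, n = 4). Fgf11, a fibroblast growth factor homologous factor, was at 0.15 (edgeR adjusted p = 0.536). Kcne2, an accessory subunit of potassium and HCN channels, was at -0.56 (edgeR adjusted p = 0.613).

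Genes of the conduction system and pacemaker programme were compared next, and 20 of 22 were tested. Etv1, an ETS factor of trabecular and conduction myocardium, fell (log2 fold change -0.32, edgeR adjusted p = 0.0373), and Nkx2-5, a core cardiac homeobox factor, rose (0.21, edgeR adjusted p = 0.0194). The means of Nkx2-5 were 96.9 ± 3.66 CPM for WT and 112 ± 2.16 CPM for the labelled mutant (SD, n = 4), and those of Etv1 were 39.1 ± 2.67 and 31.4 ± 1.97 CPM. The values of 15 of the 20 were below 0, with a median of -0.17, where 50.6% of all tested genes were below 0. At an unadjusted p below 0.05 there were 12, where 10.5% of all tested genes passed. DESeq2 called 3 of the 20 (Nkx2-5, Etv1 and Cpne5) and limma voom 2 (Nkx2-5 and Etv1). The likelihood ratio test called 6 (also Cpne5, Bmp10, Slit2 and Cacna1d). Over all tested genes these tests called 1.29%, 0.370% and 1.57%. Bmp10, a growth factor of trabecular and atrial myocardium (-0.55, edgeR adjusted p = 0.0606), and Cpne5, a copine of the conduction system (-0.41, edgeR adjusted p = 0.0620), came next. These genes were listed with earlier results of these data known, and their direction is no independent evidence about Hcn4.

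Other tissues that express HCN or sodium channel genes were looked for in the libraries. Of all tested genes 10.5% were at an unadjusted p below 0.05, and 50.6% had a log2 fold change below 0. The share called was 0.526% by edgeR, 1.29% by DESeq2 and 1.57% by the likelihood ratio test. The summed level of 8 atrial markers was mostly that of Pam and Myl4 (WT means of 1796 and 1323 CPM). It ranged from 3415 to 3943 CPM over the WT libraries and from 3346 to 3585 CPM over the others. Of the 8 markers, 8 had a log2 fold change below 0 (median -0.18) and 0 were called by edgeR (4 at an unadjusted p below 0.05). DESeq2 called 0 of them, and the likelihood ratio test called Bmp10 alone. Of 5 sinoatrial markers 0 were called by edgeR or DESeq2 (2 at an unadjusted p below 0.05), and their sum, mostly Tbx18 and Smoc2, ranged from 78.6 to 87.0 CPM over the WT libraries and from 77.9 to 91.3 CPM over the others. Isl1, a defining factor of that node, was at 0.988 ± 0.234 and 0.520 ± 0.143 CPM (SD, n = 4; log2 fold change -0.94, edgeR adjusted p = 0.241). Tbx18, the other sinoatrial marker at an unadjusted p below 0.05, was at 0.12 (edgeR adjusted p = 0.416), and of the 5 markers 2 were above 0 and 3 below. The part of such tissue in the Hcn4 values was not tested. In a bulk sample fewer cells of a kind and less RNA per cell cannot be told apart. Neuronal markers were near the limit (4 of 10 tested, summed level 5.52 to 7.52 and 5.69 to 7.42 CPM), with Chga at no more than 5 counts in any library, and none called by edgeR or DESeq2 (1 at an unadjusted p below 0.05). Schwann cell markers summed to 22.4 to 24.9 and 22.2 to 26.9 CPM, with 3 of 6 tested, 0 called by edgeR or DESeq2 and 1 at an unadjusted p below 0.05.

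For each tested channel gene the 2 genes with the most similar variation within the groups were sought among 11963 candidates, by Pearson's r of the deviations from the group mean log2 CPM over the 8 libraries. They were the highest of many values, so they are given as a description without a p. For Hcn4 they included C1d (0.976). For Scn2b they were Fto (0.986) and Cers4 (0.964). For Scn3b they were Shc2 (0.997) and Slc39a11 (0.981). For Hcn2 they were Apoe (0.972) and Bid (0.966), and for Hcn3 they included Vps54 (0.947). None of these 8 genes was itself called between the groups by edgeR, with adjusted p from 0.596 to 0.989. Counting error enters the deviations, most of all for Hcn2 and Hcn3 with at most 18 counts per library, and Scn3b had only 14 to 36. As the highest of 11963 values over 8 libraries, none of these r need mean shared variation.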

How the data were processed

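Ventricular polyadenylated RNA was made into directional libraries and sequenced as single reads, per the labels. The authors deposited RSEM expected counts (estimated counts, where ambiguous reads are shared out by likelihood), made with cutadapt and RSEM 1.3.1 on GRCm38 according to the submitters' processing notes. The name of the table gives Ensembl release 91. The aligner and the strand setting are not given in the sources used here. Expected counts were rounded to whole numbers. Symbols, positions, exon lengths and GC content came from GENCODE M21, a later release on the same assembly, which matched 53360 of 53465 identifiers. No genome was used.

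Counts were filtered with filterByExpr (minimum count 10), scaled with TMM factors (CPM) and tested with edgeR 4.0.16 (glmQLFit, glmQLFTest, two-sided, group as the only term), with Benjamini-Hochberg adjustment over 15388 genes, in R 4.3.3. Standard errors and intervals were derived from the F statistic. The alternatives were DESeq2 1.42.0, limma voom (limma 3.58.1), the likelihood ratio test, other scalings and filters, unrounded counts, GC and length offsets (lowess, span 0.3), a Y-linked covariate, the replicate block, summing with Pklr, and leaving out each library. Fits were tested on simulated data. The groups share replicate numbers, and no label says that these mark a shared litter or day. Limits at a count of 0 cover counting error only.

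Of the sample columns in the table, all 8 were used. The channel genes and lists were chosen with earlier results of these data known. Named besides the channel genes were Nrg1, tested genes of both channel families, called genes and those with the smallest p up to 4 in the partner and conduction lists, and the 2 most similar genes per channel gene. Some of the genes this rule names are not reported here. Marker genes named in the checks of tissue, and Slit2 and Cacna1d, were chosen after their values were seen. Figures were drawn with matplotlib 3.10.9.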

Additional observations from a re-analysis of the deposited data

Results flagged for a closer look

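The spread within each group was examined for the 6 genes, which makes 12 groups of 4 values, and chance flags about 1 in 20 such groups. A single value stood apart. Scn3b in WT library 3 was 0.869 CPM, while WT libraries 1, 2 and 4 ranged from 1.27 to 1.34 CPM. That library held 20 counts of Scn3b and each of the others 29. Without it the log2 fold change was -0.32 (edgeR adjusted p = 0.795). The cause was not tested.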

How the results depend on the processing

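The log2 fold changes of Hcn3, Hcn4, Scn2b and Scn3b were below 0 in every alternative in which they were tested. When each library was dropped in turn they spanned -0.70 to -0.32 for Hcn3, -0.34 to -0.24 for Hcn4, -0.31 to -0.17 for Scn2b, -0.46 to -0.069 for Scn3b and -0.077 to 0.36 for Hcn2. In the other alternatives Hcn4 ranged from -0.29 to -0.20 and its adjusted p from 0.000143 to 0.423, Hcn2 from 0.083 to 0.37, Hcn3 from -0.49 to -0.43, Scn2b from -0.28 to -0.23, Scn3b from -0.36 to -0.19 and Scn4b from -0.74 to -0.60. Moves of over 1.5 times among these came with GC and length offsets (Hcn2 0.087, with the block 0.098, without a filter 0.083) and the Y-linked covariate (Hcn2 0.37, Scn3b -0.36), with no call. Hcn4 alone was called, so that 1 channel gene in place of 0 passed, without a filter (-0.29; 338 genes called in all), with the likelihood ratio test (-0.29; 242 genes) and with DESeq2 (-0.28; 198 genes). The same held in 3 combinations chosen after seeing the data, all without a filter: with the replicate block (-0.29; 637 genes), with GC and length offsets (-0.26; 205 genes) and with DESeq2 (-0.28; 182 genes). The Y-linked covariate left 18 genes called in all. Dropping a library gave 0 to 1 channel genes and 11 to 142 genes in all, and each of the 8 moved the latter by over 1.5 times. The highest came without labelled-mutant library 4 and the lowest without labelled-mutant library 3. The cause of these shifts was not tested. DESeq2 gave no adjusted p for Hcn2 and Hcn3, and the filter of CPM of at least 1 left Hcn2 and Hcn3 untested. Depth limits Hcn2, Hcn3 and Scn4b, with at most 18 counts per library.

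To see whether equal replicate numbers pair the libraries, deviations from group means were correlated across genes. The 4 same-numbered pairs gave 0.0447 to 0.121 and the 12 others -0.0877 to 0.0195. All same-numbered pairs thus lay above all the others, and each library correlated best with its own number. The correlations were small, and what the shared numbers stand for was not tested. The reported fit has no replicate term. Under the replicate block 93 genes passed, 59 of which were also among the 81, and no channel gene. Hcn4 was then at -0.28 (edgeR adjusted p = 0.0515), and with GC and length offsets added to the block also at -0.28 (edgeR adjusted p = 0.0522).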

Other observations

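Marker lists of the other cells of the ventricle were measured beside the channel genes, and edgeR called 0 genes in each. Over all tested genes, edgeR called 0.526%, DESeq2 called 1.29% and the likelihood ratio test 1.57%. Of these genes 10.5% were at an unadjusted p below 0.05, and 50.6% had a log2 fold change below 0. Of 10 markers of endothelial cells, which the Cre driver targets, 8 had a log2 fold change below 0 (median -0.08). At an unadjusted p below 0.05 there were 6, of which Emcn was higher (0.18, edgeR adjusted p = 0.358) and the others lower. DESeq2 called Tie1 and Kdr, both endothelial receptor tyrosine kinases (edgeR log2 fold changes -0.17 and -0.17). The likelihood ratio test called Kdr and Esam. The summed level of the 10 markers ranged from 1446 to 1512 CPM for WT and from 1353 to 1486 CPM for the labelled mutant. Of 6 smooth muscle markers 3 were at an unadjusted p below 0.05 and DESeq2 called Acta2, smooth muscle actin (edgeR log2 fold change 0.12), which makes up most of the summed level (1743 to 1822 against 1822 to 1908 CPM). The other markers at that p, Pdgfrb (-0.15) and Rgs5 (-0.26), went the other way, and 4 of the 6 were below 0 (median -0.12). Of 8 fibroblast markers 1 was at an unadjusted p below 0.05 and DESeq2 called Postn, the matrix protein periostin (edgeR log2 fold change -0.18), with 6 of the 8 below 0 (median -0.06; sums 5499 to 6492 against 5306 to 6425 CPM). For 6 macrophage and 6 erythroid markers there were 0 at an unadjusted p below 0.05 and 0 by DESeq2. Their part in the channel gene values was not tested.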
